A study of Mus musculus with 6 samples.

Results

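Tetraspanins are small membrane proteins that cross the membrane repeatedly and assemble integrins, immunoglobulin-family proteins and proteases into lateral clusters called tetraspanin-enriched microdomains. Some stay at the cell surface, where they tune adhesion and cell fusion, and others sit in late endosomes and lysosomes and are packed into exosomes. In macrophages, loss of Cd9 or Cd81 is known to favour fusion into multinucleated cells, and Cd37 and Cd53 are known chiefly from leukocytes. The report covers 10 tetraspanin genes, Cd9, Cd37, Cd53, Cd63, Cd81, Cd82, Cd151, Tspan3, Tspan4 and Tspan14, chosen by symbol from a table of 24054 genes. All 10 were present and all 10 passed the filter on low counts, which left 11400 genes for testing.

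The cells were macrophages from the bone marrow of C57BL/6 mice with the WT genotype, grown from marrow for 7 days in medium conditioned by L929 cells. The treated group of 3 was kept for 24 hours with 50 µg/ml oxLDL (oxidised low-density lipoprotein, which loads macrophages with cholesterol by way of their scavenger receptors), and the untreated group of 3 was kept without it. The age and sex of the mice are not given in the labels, every title carries the unexplained word mix, and nothing says that the replicates came from separate animals or cultures, so a p-value speaks only to the scatter among these libraries, which may be technical. Samples carry the numbers 1, 2 and 3 in both groups, and a pair below means the treated and the untreated library of the same number.

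Libraries held 13546572 to 15559310 expected counts, and the smallest count of any of the 10 genes in a library was 334. The libraries numbered 3 stood apart: deviations from the group means of untreated library 3 correlated across genes at -0.76 and -0.37 with those of oxLDL libraries 1 and 2, and at 0.70 with oxLDL library 3. For each gene the deviations within a group cancel out. The negative values therefore follow in part from the positive one and are not separate evidence. Levels below are CPM, counts scaled to a common library size with TMM factors, which correct for differences in library composition. The macrophage markers summed to between 12403 and 34939 CPM in untreated and between 8779 and 15785 CPM in oxLDL libraries, with all 7 markers found in the table tested. The sums hide markers that went both ways. Cd68 measured 740, 1096 and 1195 CPM untreated and 1613, 1643 and 1328 CPM with oxLDL. Fcgr1 measured 368, 512 and 579 CPM untreated and 41.5, 15.3 and 41.8 CPM with oxLDL. Emr1, Itgam and Lyz2 were also lower in every pair, and Csf1r and Mertk were mixed. Markers of neutrophils summed to at most 30.5 CPM, of B cells to 38.0, of T or NK cells to 31.1, of dendritic cells to 15.4 and of megakaryocytes or platelets to 24.8. The T or NK sum came mostly from Cd4, at up to 30.1 CPM. Those of erythroid cells, mast cells and fibroblasts stayed below 1 CPM. In bulk RNA, fewer cells of a kind and less RNA per cell cannot be told apart.

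Of the 10 genes, the promoters of 3 are shown: Cd9 and Cd53, whose treated and untreated libraries did not overlap, and Tspan3, which passed the threshold in the paired fit. Cd63 also had groups that did not overlap, but its promoter entry does not lie at the start of a principal transcript in GENCODE M21 and is not shown. The sequences are from RefSeq (GRCm38.p6), read 5′ to 3′ on the strand of the gene. They end 41 bases before the RefSeq start for Cd9 and directly before it for the others. GENCODE M21 starts Cd9 further upstream, so the last stretch before its RefSeq start is not shown. Capitals mark matches, on either strand, to a GC box (GGGCGG) or a CCAAT box (CCAAT).
Cd9, chr6:125494801-125495010, minus strand: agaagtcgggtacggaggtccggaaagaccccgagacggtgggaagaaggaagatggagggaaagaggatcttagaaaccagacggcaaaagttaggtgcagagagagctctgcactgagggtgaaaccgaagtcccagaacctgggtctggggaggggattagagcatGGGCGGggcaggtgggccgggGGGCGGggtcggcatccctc
Cd53, chr3:106790150-106790399, minus strand: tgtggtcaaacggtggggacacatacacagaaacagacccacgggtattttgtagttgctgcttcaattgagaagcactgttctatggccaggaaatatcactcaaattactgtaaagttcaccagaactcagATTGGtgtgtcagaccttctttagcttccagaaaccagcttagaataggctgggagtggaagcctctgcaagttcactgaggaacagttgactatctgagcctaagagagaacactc
Tspan3, chr9:56161071-56161320, minus strand: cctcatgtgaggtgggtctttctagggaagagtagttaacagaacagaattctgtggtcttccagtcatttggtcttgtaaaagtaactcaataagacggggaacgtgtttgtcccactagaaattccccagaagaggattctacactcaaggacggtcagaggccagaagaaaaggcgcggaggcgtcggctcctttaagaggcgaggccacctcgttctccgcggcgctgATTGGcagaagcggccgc

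In the 250 bases before the RefSeq start, Cd9 held a pair of GC boxes, beginning 81 and 60 bases before it. Cd53 and Tspan3 each held a CCAAT box on the opposite strand, beginning 117 and 18 bases before their RefSeq starts. GC boxes were found in 32.7% of all 32851 promoters of this length and CCAAT boxes in 33.8%. Counted per gene, with a match in at least 1 annotated promoter, 7 of the 10 held a GC box and 3 a CCAAT box, the Cd63 entry included. Of the 8694 tested genes that have a promoter entry under the same symbol, 64.1% held a GC box and 41% a CCAAT box, so the 10 were near the share of tested genes. The core of the antioxidant response element (TGACNNNGC), bound by NRF2, was in 0 of the 10, in 14.2% of those tested genes and in 10.2% of all promoters, and the AP-1 letters (TGANTCA) in 0, 5.37% and 6.75%. The E-box CACGTG was found in Cd37 and Tspan4, in 10.3% of the tested genes and in 6.02% of all promoters. The ETS letters GAGGAAGT, of the type bound by PU.1, were found in Cd37 and Cd82, in 3.24% of the tested genes and in 2.44% of all promoters. A match describes letters and is no evidence of binding. On chromosome 7, Cd151 and Tspan4 are parted by a single protein-coding gene, Polr2l, and no protein-coding gene lies between Cd81 and another tetraspanin gene, Tspan32.

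Taken as a set the 10 genes did not move in one direction. Cd9, Cd53, Cd63, Cd81 and Cd82 were higher with oxLDL in all 3 pairs, Cd37, Tspan3 and Tspan14 were lower in all 3, and Cd151 and Tspan4 were mixed. Of all tested genes 26.4% were higher and 27% lower in all 3 pairs. The treated and untreated libraries did not overlap for 3 genes, Cd9, Cd53 and Cd63, all higher, while 10.5% of tested genes were separated in that direction. No gene was separated in the lower direction, against 10.6% of all tested genes. The median log2 fold change of the 10 was 0.07 with the pairs in the model, beside 0.01 for all tested genes, and the median of its size without sign was 0.39, beside 0.28. In edgeR's quasi-likelihood test with group as the only term, 0 of the 10 passed an adjusted p of 0.05 (smallest adjusted p = 0.167), as did 0 of all 11400 genes (0%). At an unadjusted p under 0.05 there were 3 of the 10 and 14.7% of all genes, and DESeq2 without pairs called 2 of the 10 and 7.65% of all genes. With the pair as a block in the same test, 1 of the 10 passed, Tspan3, which fell, beside 3.98% of all genes called lower and 1.91% called higher. Words such as "fell" and "rose" below refer to that paired fit.

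**Figure D1:**
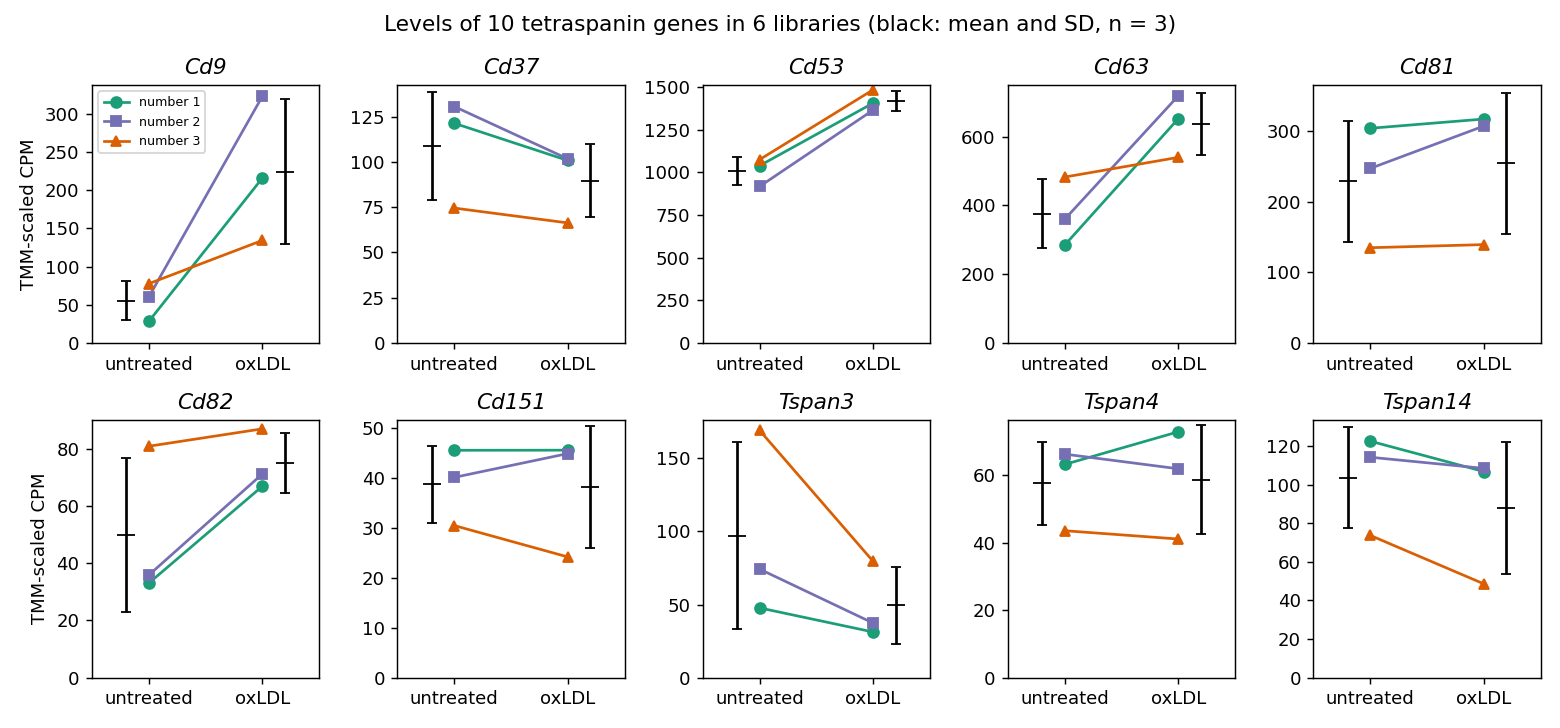
TMM-scaled CPM (vertical axes, from 0) of each gene in the 3 untreated and 3 oxLDL libraries, with lines joining libraries of the same number and black bars for mean and SD (n = 3). All 3 lines climb for Cd9, Cd53, Cd63, Cd81 and Cd82 and all 3 descend for Cd37, Tspan3 and Tspan14, and for 5 genes the libraries numbered 3 are the lowest of both groups.

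Cd9, a surface tetraspanin of adhesion complexes that is also counted among genes of lipid-associated macrophages, had the largest difference of the 10. It measured 28.4, 60.6 and 77.7 CPM in untreated libraries 1, 2 and 3, and 216, 323 and 134 CPM in the oxLDL libraries of the same numbers. All treated libraries lay above all untreated ones, and the order of the numbers was not the same: number 3 was the highest untreated and the lowest treated library. Within pairs, Cd9 was 7.58-fold, 5.32-fold and 1.73-fold higher with oxLDL. The log2 fold change was 2.06 ± 0.46 with pairs (SE; edgeR adjusted p = 0.0729) and 2.02 ± 0.48 without them (adjusted p = 0.167), at percentile 99.0 of all tested genes in the paired fit. DESeq2 called it in both designs (adjusted p = 0.0018 without pairs, 9.46e-06 with them), as did edgeR with pair 3 left out (adjusted p = 0.00108). With pairs DESeq2 called 16.3% of all genes, and edgeR without pair 3 called 29.9%. The paired fit did not call Cd9 without pair 1 (1.60 ± 0.48, edgeR adjusted p = 0.311) or without pair 2 (1.85 ± 0.65, adjusted p = 0.366). In those fits edgeR called 0 of all genes. Cd9 is also carried by platelets. Of their 5 markers, Pf4 measured 12.4, 19.1 and 18.1 CPM untreated and 13.5, 12.4 and 23.4 CPM with oxLDL, Gp1bb had 0 counts, and the other 3 were at most 1.16 CPM in any library. The part of such cells in the level of Cd9 was not tested.

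Cd63, the classic tetraspanin of late endosomes, lysosomes and exosomes, measured 285, 361 and 483 CPM untreated and 653, 720 and 540 CPM with oxLDL. The groups did not overlap, and as for Cd9 the number 3 library was the highest of the untreated and the lowest of the treated. The ratios were 2.29-fold, 2.0-fold and 1.12-fold in pairs 1, 2 and 3, so pair 3 showed little of the difference. The log2 fold change was 0.79 ± 0.25 with pairs (edgeR adjusted p = 0.126) and 0.76 ± 0.26 without them (adjusted p = 0.261). It passed with pair 3 left out (1.09 ± 0.14, edgeR adjusted p = 0.00504) and in DESeq2 with pairs (adjusted p = 0.024), and not in DESeq2 without pairs (adjusted p = 0.0658). The paired fit did not call Cd63 without pair 1 (0.57 ± 0.33, edgeR adjusted p = 0.511) or without pair 2 (0.68 ± 0.36, adjusted p = 0.491).

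Cd82, a tetraspanin of the surface and endosomes that is known as a suppressor of metastasis, also had its smallest ratio in pair 3. Unlike Cd9 and Cd63, Cd82 was highest in library 3 of both groups. It measured 33.1, 35.9 and 81.0 CPM untreated and 67.0, 71.3 and 87.1 CPM with oxLDL. The untreated library 3 lay above the treated libraries 1 and 2, so the groups overlapped. Pairs 1 and 2 showed a 2.02-fold and a 1.98-fold difference, and pair 3 a 1.08-fold one. The log2 fold change was 0.70 ± 0.22 with pairs (edgeR adjusted p = 0.122) and 0.59 ± 0.38 without them (adjusted p = 0.522), and DESeq2 called it in neither design (adjusted p = 0.0593 with pairs, 0.52 without). Without pairing it was 0.35 without untreated library 1 and 0.39 without untreated library 2. Without untreated library 3 and without pairing it was 1.12 ± 0.17 and passed (edgeR adjusted p = 0.0318, with 6.34% of all genes called), and with pair 3 left out it was 1.002 ± 0.11 and passed as well (adjusted p = 0.00326). The paired fit did not call Cd82 without pair 1 (0.54 ± 0.28, edgeR adjusted p = 0.473) or without pair 2 (0.56 ± 0.28, adjusted p = 0.469).

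Cd53, a tetraspanin known almost only from leukocytes, had the narrowest range of pair ratios of the 10. It measured 1039, 917 and 1074 CPM untreated and 1406, 1365 and 1484 CPM with oxLDL. The groups did not overlap, and the ratios of 1.35-fold, 1.49-fold and 1.38-fold spanned only 0.14 on the log2 scale, beside 2.13 for Cd9 and 1.03 for Cd63. With pairs its log2 fold change was 0.49 ± 0.17, which missed the threshold (edgeR adjusted p = 0.142; 0.307 without pairs), while DESeq2 called it without pairs (adjusted p = 0.00603) and with them (0.0211).

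Cd37, another leukocyte tetraspanin, known for restraining signalling of the fungal receptor Dectin-1, measured 121, 131 and 74.5 CPM untreated and 101, 102 and 66.3 CPM with oxLDL. The groups overlapped, and every pair was lower by a little, at 0.83-fold, 0.78-fold and 0.89-fold. With pairs its log2 fold change was -0.27 ± 0.11 and did not pass (edgeR adjusted p = 0.187). Cd37 is abundant in B cells. Of their markers, Cd79a, Ms4a1 and Pax5 were at or below 0.21 CPM in all libraries, and Cd79b was at 37.7, 22.4 and 3.07 CPM untreated and 9.28, 5.01 and 1.52 CPM with oxLDL. The part of Cd79b-bearing cells in the levels of Cd37 was not tested.

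**Figure D2:**
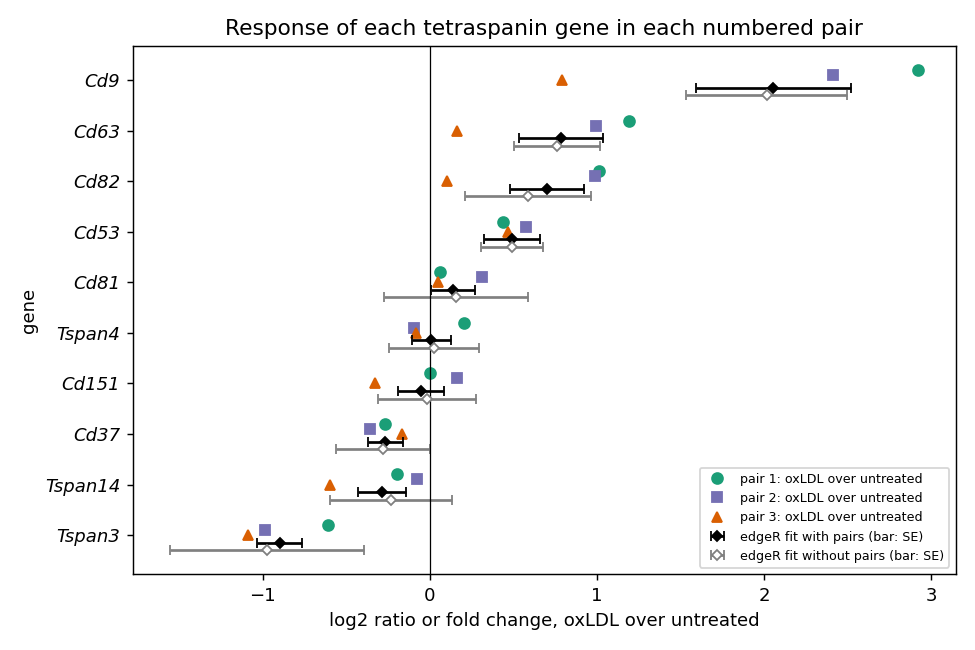
Log2 ratio of oxLDL over untreated in each numbered pair (coloured symbols) and edgeR's log2 fold change with and without pairs in the model (diamonds; bars are SE) for the 10 genes. Cd9 reads 2.92, 2.41 and 0.79 in pairs 1, 2 and 3, the triangles of pair 3 lie close to 0 for Cd63 and Cd82, and the symbols of Cd53 lie together.

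Tspan3, a tetraspanin of membranes and endosomes known for a part in leukaemia stem cells, was the only one of the 10 past the threshold in the paired fit. It measured 47.7, 74.2 and 169 CPM untreated and 31.2, 37.3 and 79.5 CPM with oxLDL. The groups overlapped, with number 3 the highest library of both, and every pair was lower with oxLDL, at 0.66-fold, 0.50-fold and 0.47-fold. With pairs it fell by 0.90 ± 0.14 in log2 terms (edgeR adjusted p = 0.0393), at percentile 8.60 of all genes, and DESeq2 with pairs called it too (adjusted p = 0.000162). Without pairs the value was -0.97 ± 0.58 (edgeR adjusted p = 0.488), and it shrank to -0.30 without untreated library 3 and grew to -1.51 without oxLDL library 3. The paired call ended without pair 1 (-1.05 ± 0.18, adjusted p = 0.186) or pair 2 (-0.85 ± 0.20, adjusted p = 0.211), where edgeR called 0 of all genes, and it held without pair 3 (-0.81 ± 0.14, adjusted p = 0.0118).

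Cd81, a surface partner of Cd9, measured 304, 247 and 135 CPM untreated and 317, 307 and 139 CPM with oxLDL. The libraries numbered 3 were the lowest of both groups by a wide margin. The log2 fold change between treated and untreated libraries was 0.14 ± 0.13 with pairs (edgeR adjusted p = 0.521). Cd151, which binds laminin-receptor integrins, measured 45.5, 40.1 and 30.5 CPM untreated and 45.5, 44.9 and 24.2 CPM with oxLDL. Its pairs went both ways, and its log2 fold change was -0.05 ± 0.14 (edgeR adjusted p = 0.823 with pairs).

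Tspan4, named in the formation of migrasomes, the vesicles that migrating cells leave on their retraction fibres, measured 63.1, 66.2 and 43.5 CPM untreated and 72.8, 61.8 and 41.0 CPM with oxLDL. Its log2 fold change was 0.01 ± 0.12 with pairs (edgeR adjusted p = 0.969). Its expected counts were not whole in any of the 6 libraries, as happens when RSEM splits reads between genes. Which other gene shared reads, and how many, was not examined, so the level of Tspan4 is uncertain. Tspan14, a member of the TspanC8 group that escorts the sheddase ADAM10 out of the endoplasmic reticulum, measured 123, 114 and 73.7 CPM untreated and 107, 108 and 48.6 CPM with oxLDL. It was lower in every pair, at 0.87-fold, 0.95-fold and 0.66-fold, and the paired log2 fold change was -0.29 ± 0.14, short of the threshold (edgeR adjusted p = 0.256). Cd37, Cd151 and Tspan14 each had a count that was not whole in 1 library.

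Cd37, Cd81, Cd151, Tspan4 and Tspan14 were lower in library 3 than in the mean of libraries 1 and 2 in both groups, by 0.49 to 1.16 on the log2 scale over the 10 values. Cd53, Cd82 and Tspan3 were higher in both groups, with Tspan3 at log2 differences of 1.504 untreated and 1.22 with oxLDL. Cd9 and Cd63 changed sides: they were higher in untreated library 3 (0.90 and 0.59) and lower in oxLDL library 3 (-0.98 and -0.34). For 6 of the 10 genes the difference of library 3 was larger in both groups than the mean pair ratio of oxLDL over untreated, a share near the 47.2% of all tested genes. What the number marks is not given in the labels, and its part in these levels was not tested.

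**Figure D3:**
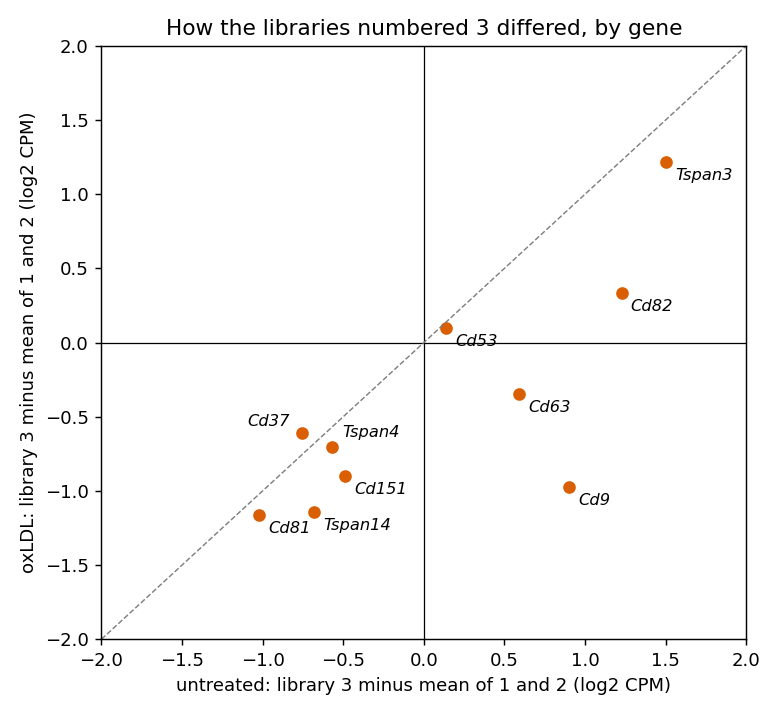
Log2 CPM of library 3 minus the mean of libraries 1 and 2 in the untreated group (horizontal axis) and in the oxLDL group (vertical axis), with 1 point for each gene and a dashed line of equal values. The 5 genes at lower left were low in both libraries numbered 3, Tspan3 was high in both at 1.504 and 1.22, and Cd9 and Cd63 lie at lower right.

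Divided by the length of the principal transcript in GENCODE M21, the level of Cd53 was the highest of the 10 in all 6 libraries, at 580 ± 47.4 CPM per kilobase untreated and 814 ± 34.7 with oxLDL (SD, n = 3). Cd63 followed at 339 ± 89.9 and 575 ± 81.8 CPM per kilobase, then Cd81 at 149 ± 56.2 and 166 ± 65.2. Cd9 stood at 45.2 ± 20.4 CPM per kilobase untreated, within the spread of Tspan3 (56.5 ± 37.2), Tspan14 (41.8 ± 10.5) and Tspan4 (39.3 ± 8.39), and at 183 ± 77.2 with oxLDL, within the spread of Cd81. Cd82 and Cd151 were lowest untreated, at 27.4 ± 14.7 and 20.7 ± 4.09 CPM per kilobase. Of the length-scaled level summed over the 10 genes, Cd9 made up 1.73% to 4.27% in untreated and 6.26% to 12.2% in oxLDL libraries. Cd53 made up 39.2% to 44.6% and 36.4% to 48.7%, so its share overlapped although its level did not. Tspan3 made up 2.08% to 6.64% and 0.895% to 2.65%. The 10 genes took 0.197% to 0.222% of all expected counts untreated and 0.27% to 0.332% with oxLDL, most of them from Cd53 and Cd63. The annotation behind the deposited counts is not given in the sources used here, so the order between genes rests on the reference transcripts.

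**Figure D4:**
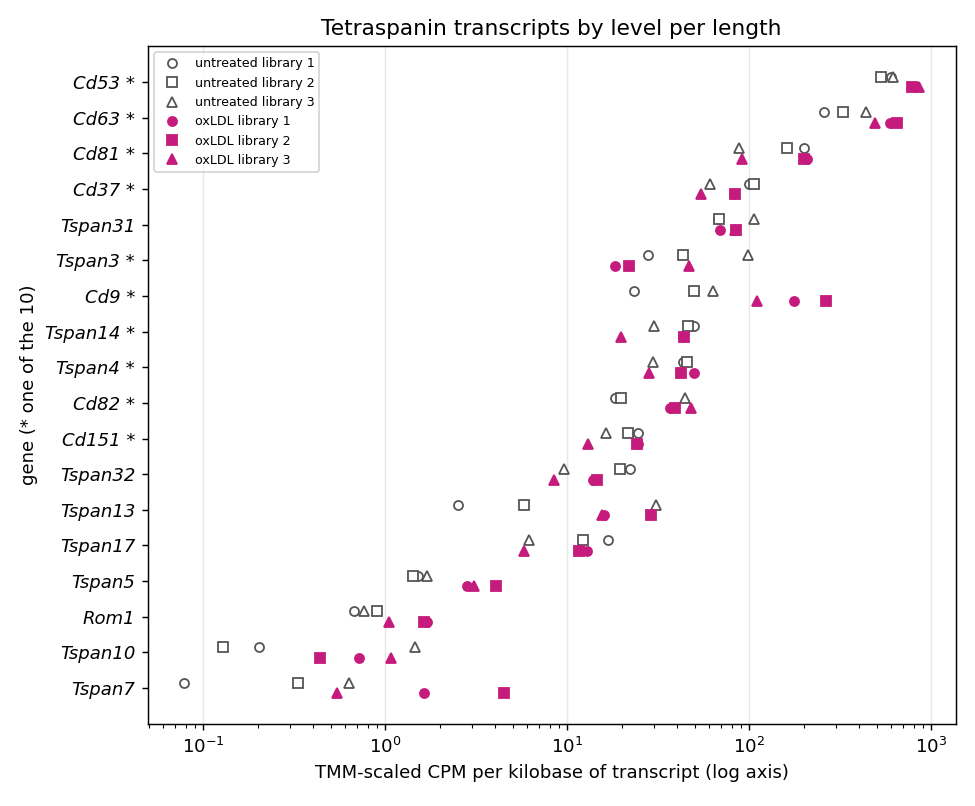
TMM-scaled CPM per kilobase of principal transcript (horizontal, log axis) in untreated (open) and oxLDL (filled) libraries for the 10 genes (asterisks) and the 8 other tetraspanin genes that passed the count filter. Cd53 and Cd63 stand at the top in both groups, and Cd9 moves from 45.2 CPM per kilobase untreated, among Tspan3, Tspan14 and Tspan4, to 183 with oxLDL.

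Among 22 other tetraspanin genes, 21 were in the table and 8 passed the count filter, of which 1 rose and 0 fell in edgeR's paired fit and 0 passed without pairs. Of all tested genes the paired fit called 1.91% higher and 3.98% lower, and the fit without pairs called 0%. Tspan5, a TspanC8 protein like Tspan14, measured 10.1, 9.43 and 11.3 CPM untreated and 18.6, 26.8 and 20.5 CPM with oxLDL. Its groups did not overlap and it rose by 1.08 ± 0.18 in log2 units (edgeR adjusted p = 0.0458 with pairs, 0.096 without). Of the other TspanC8 genes, Tspan17 had a log2 fold change of -0.18 ± 0.13 and Tspan10 of 0.72 ± 0.61, neither past the threshold, Tspan33 was at most 0.41 CPM, and Tspan15 had 0 counts in all libraries. Adam10 itself, whose protein they escort, had a value of -0.04 ± 0.12 (edgeR adjusted p = 0.834). The largest values that did not pass were those of Tspan7 (2.44 ± 0.97) and Tspan13 (1.35 ± 0.86), which were higher with oxLDL in pairs 1 and 2 and lower in pair 3. Tspan7 was scarce, at 0.14, 0.58 and 1.09 CPM untreated and 2.83, 7.81 and 0.94 CPM with oxLDL. Tspan10 was scarce too, at 0.22 to 2.46 CPM over all libraries. Rom1, a retinal tetraspanin, stood near 1 to 3 CPM with a value of 0.88 ± 0.33.

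Of 24 genes for known tetraspanin partners, 20 were tested, and in edgeR's paired fit 0 rose, 1 fell and 19 did not pass, with a median log2 fold change of -0.09. The paired fit called 1.91% of all tested genes higher and 3.98% lower. An unadjusted p under 0.05 was reached by 6 of the 20, beside 29% of all tested genes, and DESeq2 with pairs called 1 higher and 5 lower, beside 16.3% of all genes in either direction. The gene that fell was Cd47, the "do not eat me" ligand that binds integrins and the receptor SIRPA, at 291, 303 and 227 CPM untreated and 132, 117 and 137 CPM with oxLDL. The groups were apart, and the log2 fold change was -1.08 ± 0.17 (edgeR adjusted p = 0.0415 with pairs, 0.0952 without). The laminin-binding integrin chain Itga6 (-1.33 ± 0.26, edgeR adjusted p = 0.0568), the scavenger receptor Msr1 (-1.20 ± 0.23, adjusted p = 0.0547) and Clec7a, the receptor Dectin-1 that Cd37 is known to hold at the surface (1.29 ± 0.27, adjusted p = 0.0636), did not pass. Of 18 tested genes of late endosomes and exosome release, 0 rose and 0 fell in edgeR with pairs or without. DESeq2 called 0 with pairs and 0 without, beside 16.3% and 7.65% of all tested genes. In edgeR 1 had an unadjusted p under 0.05 with pairs and 0 without, beside 29% and 14.7% of all tested genes. The median log2 fold change of the 18 was -0.08. The lysosomal membrane protein gene Lamp1, whose product shares its compartment with CD63, had a value of 0.26 ± 0.21. The values largest in size were those of Rab11a (-0.38 ± 0.15), Chmp4b (-0.34 ± 0.13) and Rab35 (-0.29 ± 0.10).

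Of 11 genes of macrophage fusion, a process that Cd9 and Cd81 restrain, 8 were tested, and 1 rose and 2 fell in the paired fit. In that fit 1.91% of all tested genes were called higher and 3.98% lower. Atp6v0d2, a proton pump subunit needed for fusion of osteoclasts, rose by 2.18 ± 0.25 (edgeR adjusted p = 0.0288). Cd47, which is also on this list, and the chemokine gene Ccl2 (-2.40 ± 0.14, edgeR adjusted p = 0.0267) fell. Ccl2 measured 18.4, 18.0 and 611 CPM untreated and 3.97, 3.54 and 100 CPM with oxLDL. Its groups overlapped, and without pairs the value was -2.59 ± 1.96 (edgeR adjusted p = 0.587). Transcripts of the fusion proteins were scarce: Dcstamp was at most 0.33 CPM and Ocstamp at most 0.14 CPM in any library. In edgeR without pairs 0 of the 53 tested genes on these lists passed, 7 had an unadjusted p under 0.05 beside 14.7% of all genes, and DESeq2 without pairs called 4 beside 7.65% of all genes. With pair 1 or pair 2 left out, the paired fit called none of them, nor any other gene.

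The likeness of patterns was measured as the root mean square difference between log2 CPM profiles over the 6 samples, each centred on its own mean, among 8634 other genes whose log2 CPM averaged 3 or more. The genes nearest to Cd9 were Cpeb1 (0.12) and Thbs1 (0.19), which encodes thrombospondin 1, and Thbs1 measured 56.0, 135 and 197 CPM untreated and 590, 763 and 391 CPM with oxLDL. Nearest to Cd63 were Rhno1 and Snap47 and nearest to Cd82 were Ptpn4 and Golga4, at 0.07 to 0.09. Nearest to Cd53 were Zfp60 and Utp20 (both 0.04), and nearest to Tspan3 were Mxd1 (0.14) and Pdgfb (0.18). For the other genes the nearest profiles were Stk17b and Zzef1 (Cd37), Cryl1 and Dnajb14 (Cd81), Polk and Stx2 (Cd151), Heatr5a and Nsf (Tspan4), and Ripk3 and Rnf219 (Tspan14), at 0.05 to 0.12. Among the 10 themselves, the closest profiles were those of Cd151 and Tspan4, at 0.12. Many genes outside the 10 were closer to each: Tspan4 ranked 43 of 8634 for Cd151, and Cd151 ranked 82 for Tspan4. No tetraspanin of the 10 came close to Tspan3, whose nearest among them was Cd82 at 0.87.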

How the data were processed

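Poly(A) RNA was sequenced from 6 samples with a stranded kit, per the labels' protocols. The authors deposited expected counts from RSEM 1.2.15 with Bowtie2 2.1.0, per the submitters' processing notes, which list a human build although the samples are mouse, so gene positions rest on the reference alone. They also deposited a normalised signal, CPM on TMM-scaled library sizes, per the file's name. Whole reads recovered from it came out whole in 100% of values (tolerance 0.005), equalled the rounded expected counts in 99.9%, and gave 0 calls without and 672 with pairs. Between 10.4% and 11.1% of expected counts were not whole, and all were rounded to whole numbers before testing.

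The test was edgeR 4.0.16 (quasi-likelihood, robust, TMM, filterByExpr with minimum count 10 and total 15) in R 4.3.3, with Benjamini-Hochberg adjustment over 11400 genes and a threshold of 0.05. Standard errors were derived from the fold change and F. Group was the only term in the planned fit. Same-numbered samples deviated together (r = 0.66, 0.45 and 0.70, each over the limit of 0.1), so the fit with the number as a block is given beside it. Untreated sample 2 correlated more with oxLDL sample 1 (0.63) than with oxLDL sample 2 (0.45). Untreated sample 1 correlated with oxLDL sample 2 at 0.20. Both cross values are over the same limit, so it cannot tell pairs 1 and 2 from swapped ones. For these samples the pairing, and the calls of the paired fit, rest on the numbers in the titles. DESeq2 1.42.0 and limma 3.58.1 (voom) were alternatives, beside other scaling factors, no filter and left-out libraries. The genes and lists were chosen with earlier results of these data known. All 10 genes are named. From each list those past the threshold are named, with the largest values, and other genes named from the lists were chosen after their values were seen. Promoter entries from RefSeq matched all 10 genes by symbol.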

Additional observations from a re-analysis of the deposited data

How the results depend on the processing

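In edgeR without pairs 0 genes and 0 tetraspanins passed. The replicate block, which adds the pairs, gave 672 genes and 1 tetraspanin (Tspan3), and the reads recovered from the CPM table, an alternative chosen after seeing the data, gave 672 and 1 with it. DESeq2 called 872 genes and 2 tetraspanins (Cd9 and Cd53), and 1853 and 4 with pairs (Cd63 and Tspan3 added). limma-voom called 10 genes and dropping the count filter gave 8, both with 0 tetraspanins. Leaving out libraries or pairs gave 0 to 3446 genes and 0 to 4 tetraspanins. The count of genes was 737 without untreated library 3, 31 without oxLDL library 3 and 3446 with pair 3 left out in the paired fit, where Cd9, Cd63, Cd82 and Tspan3 passed. With pair 1 or pair 2 left out, the paired fit gave 0 genes and 0 tetraspanins. The cause was not tested. The direction of Cd9, Cd37, Cd53, Cd63, Cd82 and Tspan3 held in all 18 alternatives. The other 4 changed sign around 0 when libraries were left out: Cd81 ranged from -0.12 to 0.44, Cd151 from -0.17 to 0.22 (0.079 in the paired fit without pair 3), Tspan4 from -0.16 to 0.22 (-0.097 in the paired fit without pair 1) and Tspan14 from -0.43 to 0.048 (without oxLDL library 3). Cd151 was 0.093 with upper-quartile factors, which moved the median of all genes by 0.106, and Tspan4 was -0.0040 in DESeq2 with pairs. Each of these genes had 334 counts or more in every library.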

Other observations

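Hbegf, a growth factor precursor whose protein associates with CD9, was below the count filter. It measured 3.14 CPM in untreated library 3 and 1.01 CPM in oxLDL library 3, and at most 0.29 CPM in the other libraries. Tspan13 measured 4.85, 11.2 and 59.3 CPM in untreated libraries 1, 2 and 3 and 30.5, 55.9 and 29.7 CPM with oxLDL, so untreated library 3 stood above all others.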
